A study of Mus musculus with 6 samples.

Results

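The genes of the cytosolic ribosomal proteins were followed in mouse ovarian surface epithelial cells with and without transforming growth factor beta 1 (TGFB1). The members were all rows of the gene table whose symbol starts with Rpl or Rps and goes on with a number, including Rplp0, Rplp1 and Rplp2 and symbols that end in a, x or l. This rule found 82 of 35688 gene rows, 51 for the large 60S subunit and 31 for the small 40S subunit, and no symbol occurred in more than 1 row. It uses the symbol alone and no measured value. It misses ribosomal protein genes with other kinds of name, such as Rpsa, Rps3a1 and Fau, which are described separately.

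The study, whose title concerns COX2 and the repair of the ovarian epithelium after ovulation, deposited RNA sequencing of the cell line m1102 in 2 groups of 3 libraries. The Control group was untreated, and the TGFB1 group had received 10 ng/mL TGFB1 for 4 days before RNA extraction. Both groups were of the same line and were grown in alpha-Minimum Essential Medium with 4% fetal bovine serum, 0.01 mg/mL ITSS and 2 ug/mL epidermal growth factor (EGF). No allele is named for either group, so the comparison is of 1 cell line with and without 1 agent. The labels do not say that the 3 libraries of a group came from separate cultures, so each p-value reflects only how much these libraries varied, and that variation may be technical.

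A cytosolic ribosome has a small subunit, which decodes the mRNA, and a large subunit, which forms peptide bonds and releases the new chain through an exit tunnel. Nearly all of the proteins are present once in each ribosome, so their genes are among the most strongly transcribed in growing cells. Most of their mRNAs begin with a C followed by a run of pyrimidines, the 5′ terminal oligopyrimidine (TOP) motif, through which mTOR and LARP1 control their translation and stability. Surplus RPL5 and RPL11 bind MDM2 together with 5S rRNA, which links ribosome assembly to p53.

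The sequence around the transcription start is shown for a few members because the TOP motif lies there and because it can be set beside the size of each gene's change. RefSeq starts (build GRCm38.p6) matched 56 of the 76 tested members by symbol, with 67 start sites in all. Each line holds the 30 bases before the start and the first 20 transcribed bases, 5′ to 3′ on the strand of the gene, and the capitals mark the longest run of C and T. The first set holds called members with large falls that matched a single RefSeq start. Members with several starts were left out.
Rps27, chr3:90213629-90213678, minus strand: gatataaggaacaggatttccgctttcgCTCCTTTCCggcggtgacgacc
Rpl5, chr5:107900498-107900547, plus strand: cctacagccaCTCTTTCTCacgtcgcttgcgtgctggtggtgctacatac
Rpl13, chr8:123102320-123102369, plus strand: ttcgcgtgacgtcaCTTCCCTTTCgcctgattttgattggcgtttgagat
Rpl28, chr7:4792935-4792984, plus strand: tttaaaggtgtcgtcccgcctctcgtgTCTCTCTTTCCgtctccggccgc
Rps16, chr7:28350659-28350708, plus strand: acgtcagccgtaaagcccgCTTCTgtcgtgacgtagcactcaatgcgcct
The second set holds 5 members that were not called, whose log2 fold changes were the closest to or the farthest above 0 (chosen after their values were seen).
Rpl27, chr11:101442215-101442264, plus strand: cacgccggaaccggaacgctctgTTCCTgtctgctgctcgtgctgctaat
Rpl15, chr14:18270967-18271016, minus strand: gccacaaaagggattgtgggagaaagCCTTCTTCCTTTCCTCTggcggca
Rpl38, chr11:114668550-114668599, plus strand: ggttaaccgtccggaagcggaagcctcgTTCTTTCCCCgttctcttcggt
Rpl7a, chr2:26910777-26910826, plus strand: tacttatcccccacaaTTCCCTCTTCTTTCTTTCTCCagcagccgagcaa
Rpl39, chrX:37085203-37085252, minus strand: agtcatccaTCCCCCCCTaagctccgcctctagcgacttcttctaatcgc
Both sets hold genes with a long run at the start, such as the 11 bases of Rpl28 in the first and the 17 bases of Rpl15 in the second. In Rps16 and Rpl27 the longest run was 5 bases. A start that was C followed by 4 pyrimidines was annotated at 19.4% of the members' starts and at 2.51% of all 32851 starts. A run of 8 or more pyrimidines within 20 bases of the start occurred at 44.8% of the members' starts and at 16.0% of all starts. Among the members, such runs occurred at 40.7% of the starts of genes called lower and at 47.5% of the starts of genes not called. In Rps27 the run began 2 bases before the annotated start.

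Other short motifs were counted on both strands in the 300 bases from 250 before to 50 after each start. CTCTTT was present in 47.8% of the members' windows and 23.0% of all windows, and CTTTCC, which can overlap it, in 49.3% and 26.6%. CCGGAAG, a site of ETS factors such as GABP, was present in 35.8% and 8.86%. AAGATGG, a site of YY1, was present in 16.4% and 6.34%, and the E-box CACGTG, which MYC can bind, in 11.9% and 7.15%. GTCTAGAC, a palindromic SMAD site, was in none of the members' windows and in 0.213% of all windows.

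The deposited values are on a TPM scale (relative transcript abundance corrected for transcript length), but are not plain TPM, since the columns sum to between 983434 and 1026702. Every TGFB1 column (at most 987121) summed to less than every Control column (at least 1006783). The table holds no read counts, so the depth of the libraries is unknown. In a principal component analysis the first axis held 70.7% of the variance and put TGFB1 replicate 1 at 46.6, with the other TGFB1 libraries at 20.2 and 18.1 and the Control libraries between -29.8 and -27.1. Of the 18 markers of ovarian surface epithelium and mesothelium, 13 were tested, 1 rose and 5 fell with TGFB1. Over all tested genes 15.8% rose and 14.6% fell. The sum of the 18 markers was 2439 to 2596 TPM in Control and 1320 to 1733 TPM in TGFB1. Wt1, a marker of this epithelium, was at 181 TPM in Control and 144 TPM in TGFB1, and was not called (adjusted p 0.175 by limma). Its TGFB1 libraries were at 103, 164 and 164 TPM, the lowest in replicate 1. Krt7, a simple epithelial keratin, fell (337 and 149 TPM). The marker that rose was the cadherin Cdh2, at 48.0 and 63.0 TPM. Krt18 averaged 200.4 TPM in Control and 112 TPM in TGFB1, while the row of its partner Krt8 was close to 0 (0.193 and 0.312 TPM). Copies of the marker genes that could hold their reads were not searched for. The row of the epithelial cadherin Cdh1 was also close to 0 (0.0560 and 0.0601 TPM). The summed level of the granulosa and steroidogenic cell markers was 316 to 361 TPM in Control and 111 to 218 TPM in TGFB1, with Fshr at 0 throughout. Of these markers 4 were tested, 1 rose and 2 fell. Star held most of the sum, at 300 and 143 TPM on average, and fell, as did Inha (16.9 and 9.83 TPM). Foxl2 rose, from 18.5 to 22.7 TPM. The endothelial and smooth muscle markers summed to 2.90 to 4.22 TPM in Control and 8.57 to 13.0 TPM in TGFB1. Of the 3 tested, Cnn1 rose (1.26 and 5.90 TPM). The immune and red cell markers summed to 20.1 to 27.9 and 11.9 to 17.3 TPM, with Ptprc below 0.1 TPM on average. Cd68 held most of that sum and fell (22.7 and 8.79 TPM), while Alas2 rose (0.418 and 4.73 TPM). The part of these markers in the results below was not tested. In such bulk RNA, fewer cells of a type and less RNA per cell cannot be told apart.

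Ribosomal protein mRNAs were slightly lower after 4 days of TGFB1, in both subunits. Of the 46 tested 60S genes 13 fell, and of the 30 tested 40S genes 16 fell, while none rose in either subunit. That is 29 of 76 members or 38.2%, where 14.6% of all 12257 tested genes were called lower and 15.8% higher. The falls were small: the genes called lower were 11.3% to 38.5% lower, with a median of 14.3%, and none had changed by 2-fold. The largest falls were those of Rps27 in the small subunit and of Rpl5 and Rpl21 in the large one, the only 3 that were at least 25% lower. For Rpl5 this holds for the row of the gene, which had 3.45% of the signal of the gene and its near-identical copies. Gene and copies summed differed by -0.20 on the log2 scale.

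A gene was called by limma on log2(TPM + 1), with a p-value adjusted by Benjamini and Hochberg over all tested genes of under 0.05. Tested genes had a mean of at least 1 TPM, which 76 members met. Fold changes are given as TGFB1 minus Control on that scale. The median log2 fold change was -0.15 over the 60S members and -0.19 over the 40S members, beside 0.02 over all tested genes. The interquartile range of all tested genes was -0.20 to 0.22. On the deposited scale, values were below 0 for 43 of 46 60S members and 30 of 30 40S members, against 48.2% of all tested genes. Every TGFB1 library was below every Control library for 27 60S and 19 40S members, 60.5% of those tested, where this held for 23.6% of all genes. No member had every TGFB1 library above every Control library, where 26.3% of all genes did. At an unadjusted p under 0.05, limma gave 43 members that were lower and 0 that were higher. The scaling of the libraries bears on these counts. With quantile normalization, values were below 0 for 32 60S and 25 40S members, the medians were -0.06 and -0.08, and 6 and 4 members were called lower, beside 14.6% of all genes. With the values rescaled without the mitochondrial and the 20 most abundant genes, 40 and 28 were below 0 and 8 and 9 were called lower, beside 11.4% of all genes. In that scaling 62.8% of the calls over all genes were higher, against 52% as deposited. No member was called higher under any of the 20 alternative settings.

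**Figure D1:**
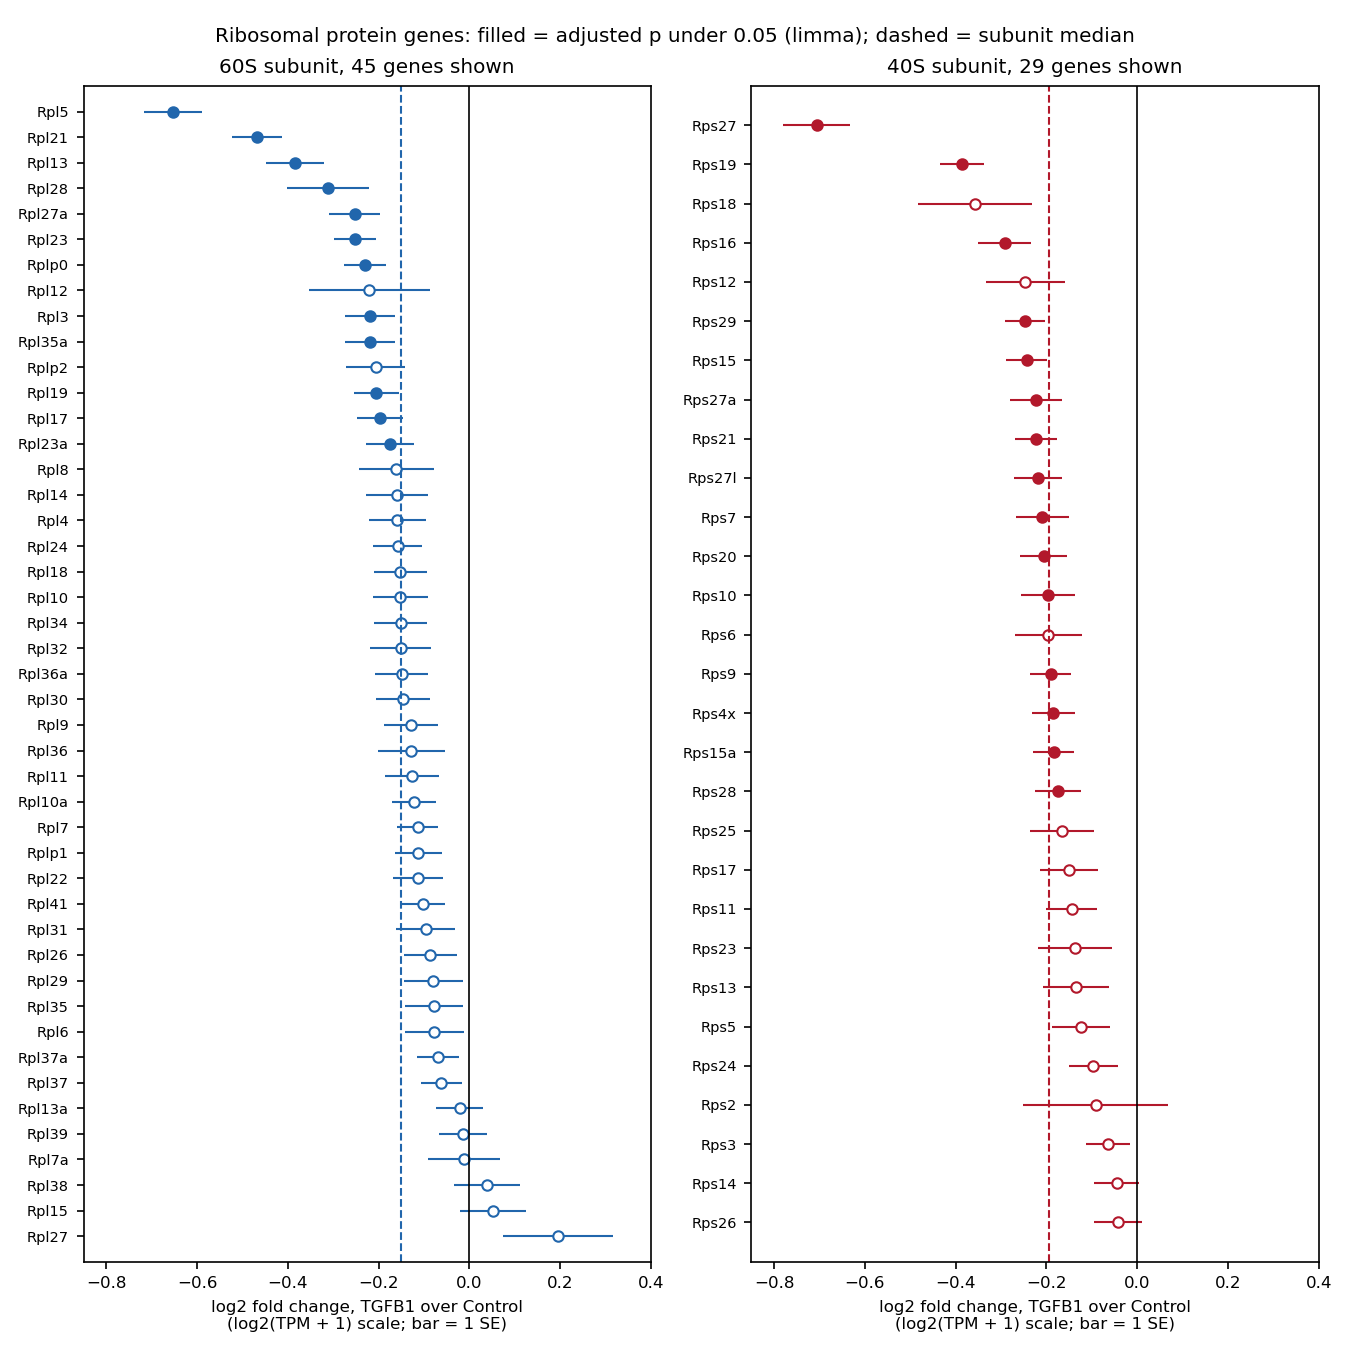
Log2 fold change (TGFB1 minus Control, log2(TPM + 1) scale) of 74 of the 76 tested ribosomal protein genes, ordered within the 60S and the 40S subunit, with bars of 1 SE, filled points for genes called lower and a dashed line at the median of each subunit. On the deposited scale nearly all points lie below 0, and Rps27 (-0.71) and Rpl5 (-0.65, row of the gene without its copies) stand apart from the rest.

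The members are among the most abundant mRNAs of these cells, and the fall was visible in their summed level. The 46 tested 60S genes had a median level of 1082 TPM and the 30 40S genes one of 1348 TPM, and 45 members were above 1000 TPM. The 60S members summed to 57659, 54433 and 56985 TPM in the 3 Control libraries and to 53481, 49755 and 49996 TPM in the 3 TGFB1 libraries. The 40S members summed to 43822, 42148 and 43416 TPM in Control and to 37305, 36017 and 36279 TPM in TGFB1. In both subunits every TGFB1 sum was below every Control sum on the deposited scale, by 9.37% on average for 60S and by 15.3% for 40S. Part of these falls comes with the lower totals of the TGFB1 columns. Together the members made up 10.0%, 9.59% and 9.78% of the column total in Control and 9.20%, 8.70% and 8.77% in TGFB1. This share was 9.35% lower in TGFB1 on average, against 11.9% for the sum of both subunits. All these sums hold the gene rows alone. With the rows of their processed copies, described below, the members summed to 133702 TPM in Control and 117487 TPM in TGFB1 on average. That sum was 12.1% lower in TGFB1. The mitochondrially encoded mRNAs, which share the same total, averaged 69184 TPM in Control and 81626 TPM in TGFB1.

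Single libraries were high or low across many members. TGFB1 replicate 1 was the highest of the TGFB1 libraries for 64 of the 76 tested members, and Control replicate 2 the lowest of the Control libraries for 62. The median deviation of the 60S members from their mean over the Control libraries was -0.07 in TGFB1 replicate 1 and -0.19 and -0.16 in replicates 2 and 3 (log2). For the 40S members these values were -0.13, -0.24 and -0.22. So the library farthest from Control along the first principal component was the closest to Control in its ribosomal protein genes. Without TGFB1 replicate 1 limma called 25 60S and 25 40S members lower, beside 15.9% of all genes tested in that fit, and the medians were -0.18 and -0.23. The counts were smaller when any other library was left out, and so was the share of all genes called lower. They were 6 and 6 without Control replicate 1 (9.21% of all genes), 11 and 12 without Control replicate 2 (9.14%) and 5 and 6 without Control replicate 3 (7.45%). They were 5 and 5 without TGFB1 replicate 2 (10.5% of all genes) and 7 and 5 without TGFB1 replicate 3 (11.4%).

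**Figure D2:**
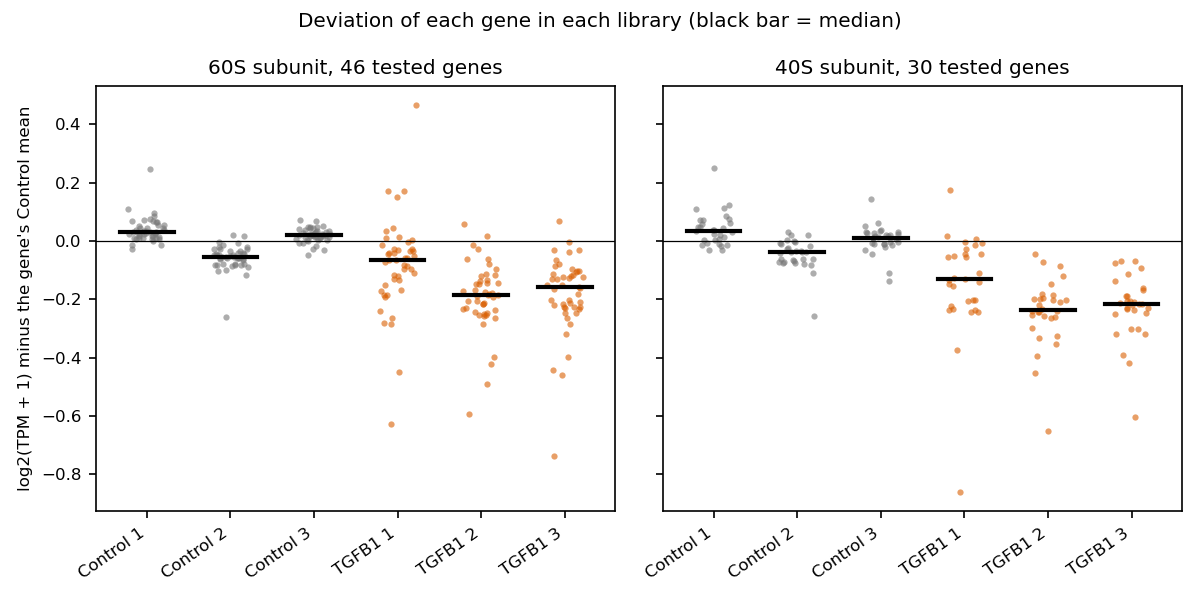
Deviation of each tested 60S and 40S member from its own Control mean (log2(TPM + 1)) in each of the 6 libraries, where points are genes and black bars are medians. The medians of the TGFB1 libraries lie below those of the Control libraries in both subunits, and that of TGFB1 replicate 1 is the nearest to them.

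Rps27 encodes a zinc-binding protein (eS27) of the small subunit and was the most abundant member. It measured 5183, 5303 and 5215 TPM in Control and 2881, 3328 and 3443 TPM in TGFB1. The groups lay far apart, and the drop exceeded the spread within either of them: -0.71 log2 (SE 0.0742, adjusted p 0.00130 by limma), or 38.5% lower. The gene lies on the minus strand of chr3:90212522-90213651 (GRCm38). The subunit sums hold gene rows alone and leave out the processed copies described below. At its level Rps27 weighed on the balance between the subunits in these sums. It made up 11.8%, 12.6% and 12% of the 40S sum in Control and 7.72%, 9.24% and 9.49% in TGFB1. With Rps27 left out, the 40S sum was 12.1% lower in TGFB1. The ratio of the 60S to the 40S sum was 1.32, 1.29 and 1.31 in Control and 1.43, 1.38 and 1.38 in TGFB1. Without Rps27 it was 1.49, 1.48 and 1.49 in Control and 1.55, 1.52 and 1.52 in TGFB1, so the groups still did not overlap, with a smaller gap.

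Rps27l, the vertebrate paralog of Rps27 and a known p53 target, moved less. It measured 1191, 1131 and 1238 TPM in Control and 1002, 1045 and 1012 TPM in TGFB1. Its groups did not overlap, and it was called lower at -0.22 log2 (adjusted p 0.0238 by limma), a call lost under 7 of 20 alternatives. The ratio of Rps27 to Rps27l was 4.35, 4.69 and 4.21 in Control and 2.88, 3.19 and 3.40 in TGFB1. Every TGFB1 ratio was below every Control ratio, so the 2 paralogs made unequal changes.

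Rpl5, the 60S protein that carries 5S rRNA into the ribosome with Rpl11, had the second largest fall. Its row measured 59.9, 57.8 and 61.0 TPM in Control and 38.2, 39.1 and 35.3 TPM in TGFB1. The groups did not overlap, and the difference was -0.65 log2 (SE 0.0637, adjusted p 0.00101 by limma), or 37.0% lower. The gene lies on the plus strand of chr5:107900502-107909005. However, this row held only 3.45% of the signal of its family of near-identical sequences. The processed copy Gm15500 measured 1414, 1442 and 1472 TPM in Control and 1282, 1265 and 1260 TPM in TGFB1, a difference of -0.18 log2 (adjusted p 0.0236). For the gene and its copies summed, the difference was -0.20 log2 (adjusted p 0.0174) by limma. The fall was thus far smaller over the family than in the row of the gene.

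Rpl21 had the next largest fall among the 60S genes. It measured 1068, 963 and 1022 TPM in Control and 744, 723 and 738 TPM in TGFB1, and was called lower at -0.47 log2 (adjusted p 0.00197). The lowest Control library was well above the highest TGFB1 library. Rpl13 measured 2015, 1853 and 1898 TPM in Control and 1577, 1433 and 1412 TPM in TGFB1, and was called lower at -0.38 log2 (adjusted p 0.00604). Rpl28 measured 704, 624 and 631 TPM in Control and 594, 494 and 495 TPM in TGFB1, and was called at -0.31 log2 (adjusted p 0.0410). Its groups were separate but close, and the call was lost under 11 of the 20 alternative settings.

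Among the 40S genes Rps19 followed Rps27. Rps19 is needed to mature the 3′ end of 18S rRNA and is the gene most often mutated in Diamond-Blackfan anaemia. It measured 2384, 2223 and 2254 TPM in Control and 1763, 1740 and 1744 TPM in TGFB1, and was called at -0.39 log2 (adjusted p 0.00252). The TGFB1 libraries were nearly equal and all below the Control libraries. Rps16 measured 1341, 1224 and 1267 TPM in Control and 1094, 1013 and 1022 TPM in TGFB1 (-0.29 log2, adjusted p 0.0118). Its groups did not overlap. Rps27, Rpl5, Rpl21, Rps19, Rpl13 and Rps16 kept their call under all 20 alternative settings.

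**Figure D3:**
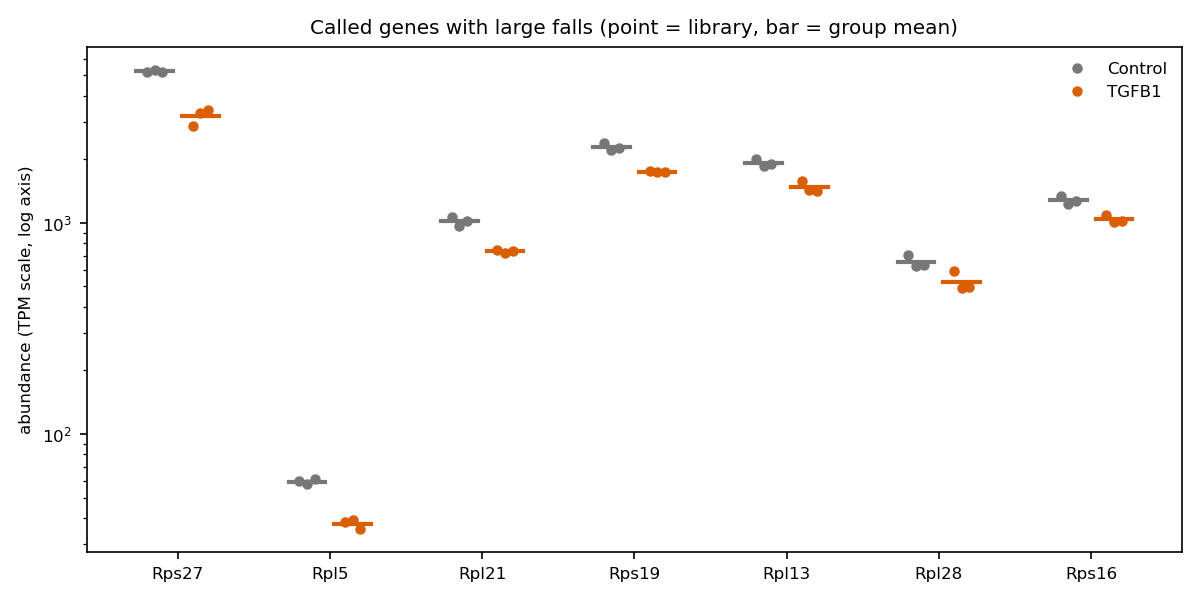
Level (TPM scale, log axis) in each library of 7 called members with large log2 falls and separate groups, with bars at the group means. For each gene the 3 TGFB1 points lie below the 3 Control points.

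Within the large subunit, the stalk proteins recruit translation factors. Rplp0, the base of the stalk, measured 2144, 2093 and 2172 TPM in Control and 1871, 1793 and 1801 TPM in TGFB1. It was the only 1 of the 4 stalk genes called lower (-0.23 log2, adjusted p 0.0124), and its groups did not overlap, but the call was lost under 4 of 20 alternatives. Rplp2 differed by -0.21 log2 (adjusted p 0.0534, and 0.00804 without TGFB1 replicate 1) and Rplp1, the most abundant 60S member, by -0.11 log2 (adjusted p 0.144). Rpl12, which sits beside the stalk, differed by -0.22 log2 (adjusted p 0.253). Rpl11, the partner of Rpl5 in the 5S particle, measured 723, 668 and 702 TPM in Control and 677, 619 and 621 TPM in TGFB1. Its groups overlapped, and its difference of -0.13 log2 was not called (adjusted p 0.154).

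Around the exit tunnel, 3 of 8 genes fell, about the share of all members (38.2%). Rpl17 was at -0.20 log2 (adjusted p 0.0267), Rpl19 at -0.21 (adjusted p 0.0224) and Rpl23a, a docking site for factors that bind the new chain, at -0.17 (adjusted p 0.0448). Rpl39, a tunnel protein of few residues, measured 1130, 1039 and 1136 TPM in Control and 1081, 1091 and 1099 TPM in TGFB1. Its groups overlapped, and the difference was -0.01 log2 (adjusted p 0.866). Other 60S members called lower were Rpl23, Rpl27a, Rpl35a and Rpl3, the last a protein next to the peptidyl transferase centre. They lay between -0.25 log2 for Rpl27a and -0.22 for Rpl35a, and the call of Rpl3 (-0.22, adjusted p 0.0245) was lost under 7 of 20 alternatives. Rpl41 (-0.10 log2) and Rpl13a (-0.02 log2), among the most abundant 60S members, were not called.

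On the deposited scale 3 members, all of the large subunit, had a log2 fold change above 0. Rpl27 measured 165, 144 and 159 TPM in Control and 215, 162 and 163 TPM in TGFB1, a difference of 0.20 log2 (adjusted p 0.262), or 0.06 without TGFB1 replicate 1. Rpl15 was at 0.05 and Rpl38 at 0.04 log2, and neither was called. All 3 had overlapping groups. Rpl27 with its copies summed was at -0.10 log2.

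Within the small subunit, Rps15 and Rps14 were the most abundant members after Rps27. Rps15 measured 2497, 2405 and 2495 TPM in Control and 2095, 2082 and 2072 TPM in TGFB1. It was called lower at -0.24 log2 (adjusted p 0.00890), and the groups were far apart relative to their spread. Rps14, which lies on the platform of the subunit, measured 2309, 2197 and 2269 TPM in Control and 2268, 2148 and 2153 TPM in TGFB1. Its groups overlapped, and the difference was -0.04 log2 (adjusted p 0.528). Rps27a, made as a fusion with ubiquitin, fell by 0.22 on the log2 scale (adjusted p 0.0274), a call lost under 7 of 20 alternatives. Rps6, the substrate of the S6 kinases, measured 820, 828 and 834 TPM in Control and 802, 699 and 671 TPM in TGFB1. Its groups did not overlap, but TGFB1 replicate 1 was near the Control libraries, and the difference of -0.20 log2 was not called with it (adjusted p 0.0870) and was called without it (adjusted p 0.00394). Rps29, Rps21, Rps7, Rps20, Rps10, Rps9, Rps15a, Rps4x and Rps28 were further 40S members called lower, between -0.25 log2 for Rps29 and -0.17 for Rps28. With its copies, described below, summed, Rps28 was at -0.14 log2 and was not called (adjusted p 0.0704 by limma). Rps7 and Rps20 kept their call there. The call of Rps4x (-0.18, adjusted p 0.0282) was lost under 10 of 20 alternatives.

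The ribosomal proteins found in all domains of life made a list of 33, which includes Rpsa. On the deposited scale all 33 had log2 fold changes below 0, with 14 called lower and none higher (median -0.16, 20 lower and 0 higher at an unadjusted p under 0.05). Over all 76 tested members 29 were called lower and 73 were below 0, and over all tested genes 14.6% were called lower and 48.2% were below 0. The tested members lay on 19 chromosomes.

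Some paralogs and pseudogenes among the members were nearly silent. Rpl10l, Rpl39l and Rps4l were listed at 0 in all 6 libraries, and Rpl3l, the muscle form of Rpl3, was above 0 in 1 library only (0.217 TPM in TGFB1 replicate 2). Rpl32l and Rpl6l averaged 0.119 and 0.30 TPM. These 6 were the members that did not reach 1 TPM and were not tested. In the GENCODE M21 annotation Rpl32l and Rpl6l are processed pseudogenes and Rps4l is a transcribed processed pseudogene. Among the paralogs that are expressed, Rpl22l1 (-0.18 log2, adjusted p 0.0854), Rpl36al (-0.24, adjusted p 0.0923) and Rpl7l1 (0.02) were not called, and neither were their main copies Rpl22 (-0.11), Rpl36a (-0.15) and Rpl7 (-0.11). Among the ribosomal protein genes that the symbol rule misses, Rpsa fell by 0.31 on the log2 scale (adjusted p 0.0210) and Rps3a1 by 0.25 (adjusted p 0.00840). The call of Rpsa was lost under 5 of 20 alternatives and that of Rps3a1 under 1. Fau (-0.13, adjusted p 0.336), made as a fusion with a ubiquitin-like protein, was not called. Its row averaged 404 TPM in Control and 368 TPM in TGFB1, below its copy Gm9843, which averaged 1165 and 1009 TPM and was called lower (-0.21 log2, adjusted p 0.0222).

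Ribosomal protein genes have left many processed copies in the mouse genome, and reads of a gene and its copies are hard to tell apart. In the GENCODE M21 transcripts of build GRCm38, 74 of the 76 tested members had at least 1 copy, defined as a pseudogene or single-exon gene with 25% or more of its 31-base words in the member. These copies filled 570 rows of the table, of which 118 were tested. Of those tested, 36 had a mean of at least 100 TPM. Over all 118 tested copies 24 were called lower and 1 higher, where 14.6% of all tested genes were called lower and 15.8% higher. The median log2 fold change of the tested copies was -0.18. For 19 members the gene held less than 50% of the summed signal of the family, while for 43 it held at least 99%.

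Several members with a low row had abundant copies. Rps2 averaged 25.3 TPM and its copies 3316 TPM, of which Rps2-ps10 had 3292 TPM. Rps18 averaged 52.6 TPM beside 2150 TPM for its copies, and Rps12 108 TPM beside 2457 TPM. In the large subunit, Rpl12 averaged 46.0 TPM beside 1463 TPM, and Rpl3 130 TPM beside 850 TPM. Each of these genes stood beside copies at many times its level, and single rows of such families are uncertain. When the copies were summed with each gene, limma called 16 60S and 17 40S members lower, beside 14.6% of all genes tested in that fit. The medians were -0.16 and -0.19, beside 0.02 over all those genes.

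**Figure D4:**
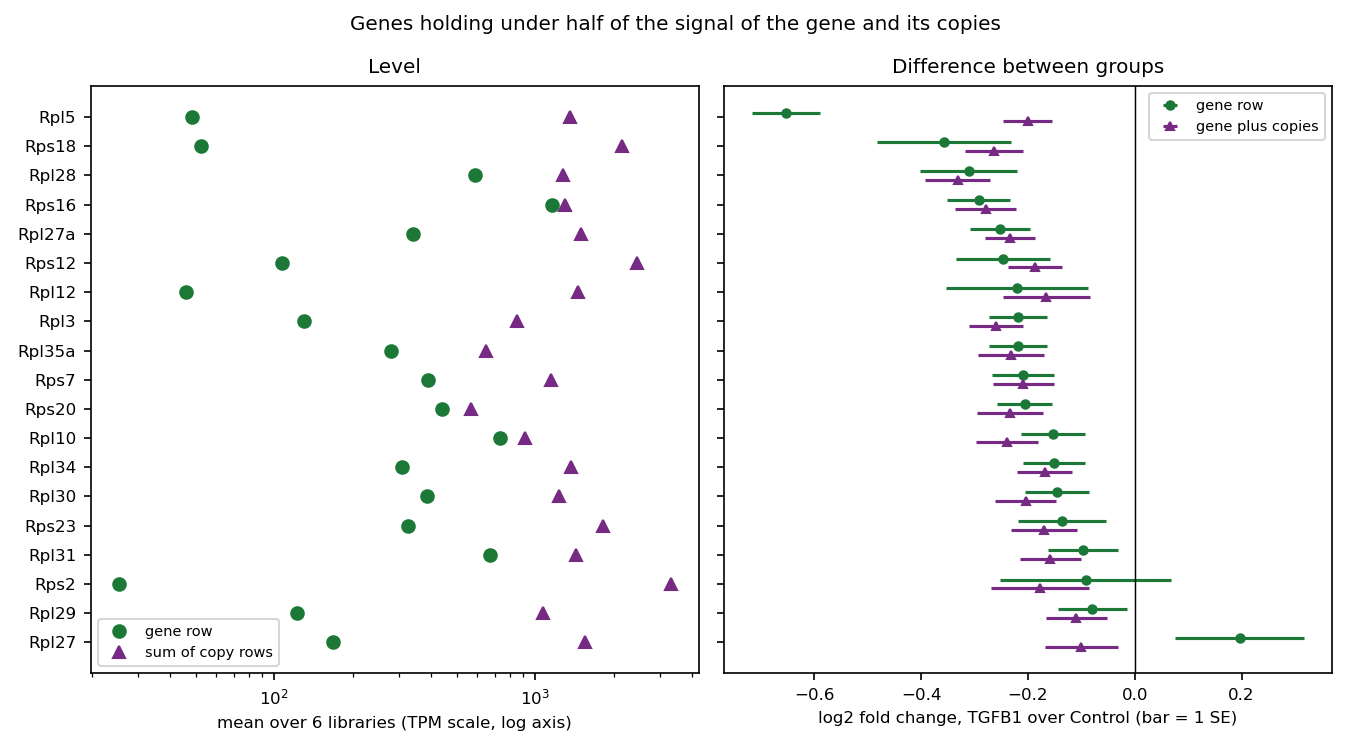
For the 19 members whose gene row holds less than 50% of the family, the mean level (TPM scale, log axis) of the gene row and of its summed copies, and the log2 fold change of the gene row and of gene and copies summed (bars of 1 SE). For Rps2, Rps18, Rps12 and Rpl5 the copies lie more than 10 times above the gene, and the 2 fold changes differ the most for Rpl5 (-0.65 and -0.20) and Rpl27 (0.20 and -0.10).

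Among the other genes of ribosome production few were called, in both directions, where 15.8% of all tested genes were called higher and 14.6% lower. None of the 15 tested genes of RNA polymerase I and rDNA transcription was called, with a median log2 fold change of -0.01, and 2 were higher and 0 lower at an unadjusted p under 0.05. Its largest subunit Polr1a was at -0.02 and the factor Ubtf at -0.06. Of the 12 snoRNP proteins, which guide rRNA modification, 1 rose and none fell (median 0.10). That was Naf1 (0.20 log2, adjusted p 0.0487), a call lost under 9 of 20 alternatives. Of the 40 factors of 40S assembly 3 rose and 1 fell (median 0.07). Those that rose were Nop9 (0.48 log2), Utp6 (0.41) and Tsr1 (0.35), and Emg1, an rRNA methyltransferase, fell by 0.28. The call of Tsr1 was lost under 7 of 20 alternatives and those of Nop9 and Utp6 under 1 each. Of the 45 factors of 60S assembly 1 rose and 1 fell (median 0.09). Rbm28, a nucleolar RNA-binding protein, averaged 169 TPM in Control and 90.7 TPM in TGFB1 (-0.88 log2, adjusted p 0.00289), and the helicase Ddx54 rose by 0.28 log2, a call lost under 1 of 20 alternatives. Of the 15 chaperones and importers of ribosomal proteins 2 rose and 1 fell (median -0.04): the importins Tnpo1 (0.27 log2) and Ipo9 (0.20) rose and Aamp (-0.35), a relative of the yeast chaperone of Rpl10, fell. The call of Ipo9 was lost under 7 of 20 alternatives, that of Tnpo1 under 2 and that of Aamp under 1.

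Among 20 other mRNAs with a TOP motif 3 fell and none rose (median -0.07), a share near the 14.6% of all tested genes that were called lower. They were Tpt1 (-0.53 log2), Pabpc1, the poly(A)-binding protein (-0.46), and Naca, which binds new chains at the tunnel exit (-0.26), whose call was lost under 1 of 20 alternatives. Eef1a1, the elongation factor that delivers aminoacyl-tRNA, differed by -0.03 log2 and was not called, but with quantile normalization it was called higher at 0.27 (adjusted p 0.00211). Of the 23 tested regulators of TOP mRNAs and growth 2 rose and none fell (median 0.01), where 15.8% of all tested genes were called higher. Deptor had the lowest log2 fold change of this list, -1.14 (adjusted p 0.0920 by limma). Without TGFB1 replicate 1 it was at -0.59 and was called lower (adjusted p 0.0114), where 15.9% of all genes were. Myc, which activates ribosomal genes in many cells, measured 7.12, 6.95 and 6.18 TPM in Control and 35, 13.1 and 11 TPM in TGFB1. Every TGFB1 library was above Control, but TGFB1 replicate 1 was far above the other 2. The rise was 1.24 log2 (adjusted p 0.0494) and 0.75 without that library (adjusted p 0.00277), and the call was lost under 9 of 20 alternatives. Mycn rose by 0.45 log2, a call lost under 4 of 20 alternatives. Mtor (-0.22 log2) and Larp1 (-0.06 log2) were not called.

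Of 9 tested nucleolar and p53-linked genes 3 rose and 2 fell, where 15.8% of all tested genes were called higher and 14.6% lower. Cdkn1a, the cell cycle inhibitor and p53 target, was at 88.6 ± 13.1 TPM (SD, n = 3) in Control and 183 ± 41.9 TPM in TGFB1, a rise of 1.02 log2 by limma (adjusted p 0.00633). Mdm2, the ubiquitin ligase of p53, rose by 0.39 log2 and Trp53 by 0.26, calls lost under 4 and 3 of 20 alternatives. Nop53, a nucleolar protein that binds the 5S particle, fell by 0.45 log2 and Surf2 by 0.30. The call of Surf2 (adjusted p 0.0423 by limma) was lost without TGFB1 replicate 1 (adjusted p 0.0511). Npm1, which carries ribosomal subunits, was not called. The snoRNA host genes were not analysed here.

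**Figure D5:**
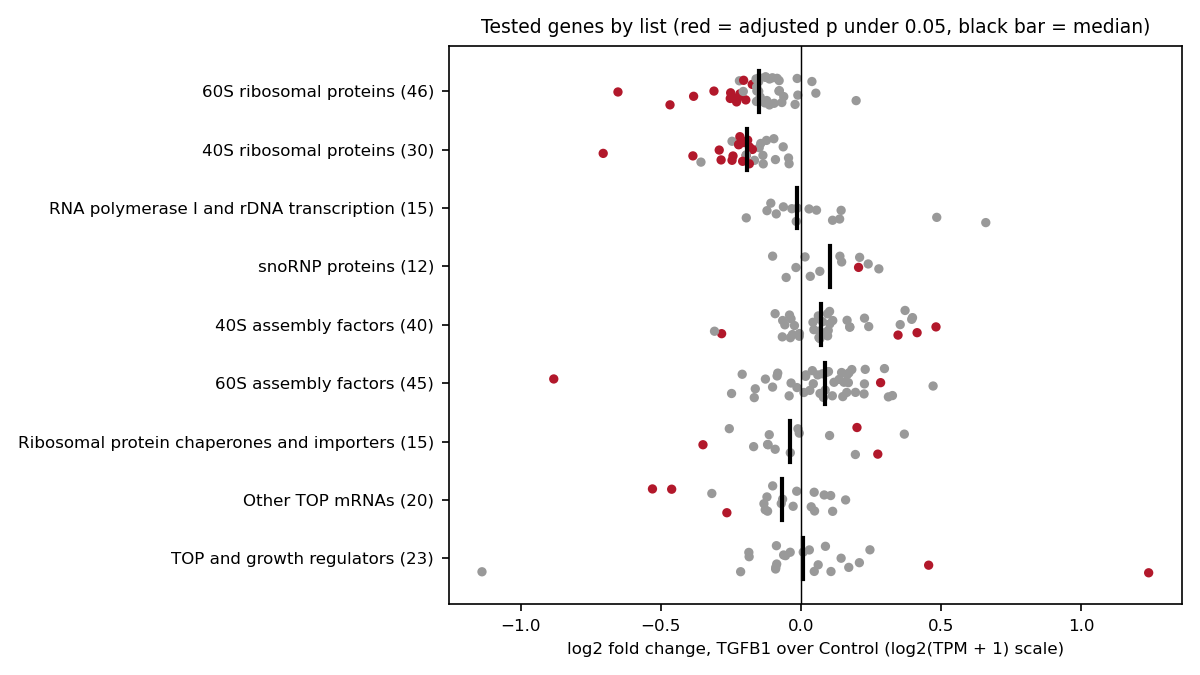
Log2 fold change (TGFB1 minus Control) of each tested gene in the lists of ribosomal proteins and ribosome production, with red points for called genes and a black bar at the median of each list. The medians of both subunits lie at -0.15 and -0.19, and those of the assembly factor lists at 0.07 and 0.09.

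Ribosomal protein mRNAs are short and abundant, and other genes of that kind were also more often lower in TGFB1. The other genes here are all tested genes that are not members. They include the members' processed copies and the ribosomal protein genes that the symbol rule misses. Among the other genes with a median transcript length under 1000 bases and a mean of at least 100 TPM (984 genes), the median log2 fold change was -0.08 and 29.98% were called lower. Of the members in the same class (69 genes) the median was -0.16 and 39.1% were called lower. By length alone, the median of the other genes went from -0.06 under 500 bases to 0.05 over 2000 bases. The part of transcript length and abundance in the members' values was not tested. These classes were chosen after the data were seen.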

How the data were processed

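RNA of 6 libraries of the line m1102 was sequenced, 3 untreated and 3 given TGFB1. Per the labels' protocols, a directional kit was used after poly(A) selection, starting from 250 ng of RNA. Per the submitters' processing notes, kallisto 0.44.0, sleuth 0.30.0 and GRCm38 were used, with no role stated. Neither annotation nor use of strand nor gene summing is stated in those notes or labels. The authors deposited 1 table of a TPM-scale signal per gene and library. It holds no counts, so depth is unknown and no counting interval can be given.

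Groups and replicates came from the labels. The test took the 12257 genes with a mean of 1 TPM or more, on log2(TPM + 1) with limma 3.58.1 in R 4.3.3, two-sided, with a trended prior and Benjamini-Hochberg adjustment over all of them, called under 0.05. On simulated data of these 12257 genes, the procedure called 6% of 1.2-fold changes, 46% of 1.5-fold and 72% of 2-fold changes. Each size of change was set in 50 genes drawn from all tested genes, far fewer than were called in the real data. Lists and members were chosen with earlier results of these data known. The genes named were, of the 8 called members with the largest falls and separate groups, those reported here, the 3 most abundant of each subunit, the stalk and 5S genes, Rps6, Rps27a, the paralogs, the genes the symbol rule misses, and up to 3 called genes of each other list. A few genes are not reported here. Others were chosen after their values were seen. Copies were found by shared 31-base words in the GENCODE M21 transcripts. The alternatives were other pseudocounts, filters and scalings, a replicate block, no trend, leaving out each library and 3 added after the data were seen: repeated rows removed, copies added, and both replicates 1 left out.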

Additional observations from a re-analysis of the deposited data

How the results depend on the processing

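No alternative called a member higher. The 13 60S and 16 40S members called lower became 7 and 5 without a filter on low values, where 5.77% of all genes were called lower in place of 14.6%. They became 6 and 4 with quantile normalization (14.6% of all genes), and 8 and 9 with rescaling that left out the mitochondrial and the 20 most abundant genes (11.4%). They were 8 and 7 with limma without a trend (13.0%). Rescaling over all rows gave 10 40S members (12%), and leaving out both replicates 1 gave 21 60S members (16.6%). Leaving out 1 library at a time gave between 5 and 25 in each subunit, the highest without TGFB1 replicate 1, and between 1121 and 1992 genes higher and 915 and 1951 lower in the whole table. The medians moved with quantile normalization, to -0.0587 for 60S and -0.0823 for 40S, and with rescaling without the mitochondrial and most abundant genes to -0.14 for 40S. Over all other alternatives that kept every library they stayed within the spread between libraries. The cause of these differences was not tested.

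The replicate numbers were not shown to pair the libraries: the correlation of the deviations of same-numbered libraries over all tested genes was 0.198, 0.153 and -0.0384. With a replicate block 13 60S and 17 40S members were called lower, and 1906 genes were higher and 1924 lower over the table.

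Some members and related genes near 0 changed sign, and all but Eef1a1 with quantile normalization were uncalled there. With quantile normalization the log2 fold changes were 0.0644 for Rps14, -0.00847 for Rpl7l1, 0.0199 for Rpl7, 0.0882 for Rpl39, 0.0780 for Npm1 and 0.27 for Eef1a1. With rescaling over all rows they were 0.0202 for Rpl13a, 0.0276 for Rpl39, 0.0133 for Eef1a1 and 0.0236 for Polr1a. With rescaling without the mitochondrial and most abundant genes they were 0.0285 for Rpl13a, 0.00518 for Rps14, 0.0359 for Rpl39, 0.0216 for Eef1a1 and 0.0318 for Polr1a. With rescaling without the members they were 0.00560 for Rpl13a, 0.0131 for Rpl39 and 0.00933 for Polr1a. Median-of-ratios scaling gave -0.00608 for Rpl7l1, and adding the copies gave -0.0997 for Rpl27. Without both replicates 1 they were -0.0532 for Rpl7l1, 0.0108 for Rpl39, 0.0454 for Ubtf, -0.00263 for Rpl15 and -0.00638 for Rpl38. Leaving out 1 library gave -0.0412 to 0.0582 for Rpl7l1, -0.0557 to 0.00870 for Rpl39, -0.0657 to 0.0514 for Polr1a, -0.00741 to 0.0944 for Rpl15, -0.0281 to 0.0728 for Rpl38 and -0.22 to 0.0393 for Rps2.

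With 3 libraries a group and no counts, small changes can be missed: simulated 1.2-fold changes were called in 6% of genes. That simulation changed few genes, drawn from all tested genes whatever their level and spread. The 6% therefore does not give the limit of the test for the members. Differences between subunits in the number of genes called were not tested.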
